A study of Homo sapiens with 18 samples.

Results

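HAL1 elements are ancient, partial relatives of the L1 retrotransposon, and the repeat annotation lists them under 4 names: HAL1, HAL1b, HAL1ME and HAL1M8. All annotated copies whose repeat name begins with HAL1 were taken, which gave 13680 of the 2472685 repeat copies listed over the 2 deposited tables. The table of the Nutlin experiment listed 8364 of these copies among 1996647, the table of the 5-fluorouracil (5-FU) experiment listed 13056 among 2404193, and 7740 stood in both. The HAL1 names were singled out by their Nutlin values, above all those of a HAL1b copy on chromosome 17. The Nutlin comparison is therefore described without a test, while the 5-FU comparisons rest on other libraries and were tested.

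A complete L1 element encodes an RNA-binding protein and a second protein with endonuclease and reverse transcriptase activity, which together copy the element into new sites of the genome. HAL1 elements carry a version of the first reading frame and lack the second, so they could move only with enzymes supplied by other elements. The copies left in the human genome are old, mutated and broken into fragments, many of them inside the transcripts of other genes, and a read over such a fragment can come from any RNA that crosses it.

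Total RNA was sequenced from IMR90 cells, a line of diploid fibroblasts from human lung with wild-type genotype. Nutlin, which blocks the binding of MDM2 to the tumour suppressor p53, was given at 5 µM for 6 h. 5-FU, a pyrimidine analogue that disturbs thymidylate synthesis and RNA processing, was given for 6, 12 or 24 h at 375 µM. DMSO vehicle groups of the same length accompanied each drug group, and untreated cells had only a change of medium 12 h before harvest. Each group had 2 libraries, and the labels do not say whether these came from separate cultures, so the p-values measure the spread between these libraries only. The tables hold repeat copies and no genes, so the identity of the cells was not checked against fibroblast markers. In bulk RNA, fewer cells of a kind and less RNA per cell cannot be told apart.

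Library totals ran from 9109885 to 11880265 counts in the Nutlin table and from 2412334 to 6290320 in the 5-FU table. In the Nutlin table both columns labelled untreated hold the same values, so they were counted as 1 sample. HAL1 copies held 0.147% to 0.195% of all counts in the Nutlin table and 0.39% to 0.563% in the 5-FU table. Outside ribosomal, transfer and other structural RNA, these shares were 0.724% to 0.761% and 0.693% to 0.837%. Levels are given in CPM, counts scaled to the size of the library, and were not compared between the tables, which differ in their content of structural RNA. A copy or name is called where its adjusted p in edgeR's quasi-likelihood test, with Benjamini-Hochberg adjustment over the whole table, is under 0.05.

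Per length of annotated sequence, HAL1b and HAL1ME were the most counted names and HAL1 the least. In the 5-FU table the mean level was 1.63 CPM per kb for HAL1b (1.31 to 1.88 over the 14 libraries), 1.63 for HAL1ME (1.35 to 1.95), 1.03 for HAL1M8 (0.904 to 1.18) and 0.835 for HAL1 (0.689 to 0.932). The ranges of HAL1b and HAL1ME overlapped almost fully, those of HAL1M8 and HAL1 only at the edge. In the Nutlin table the order from the top was HAL1b with 1.13 CPM per kb, HAL1ME with 0.773, HAL1M8 with 0.45 and HAL1 with 0.366.

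These levels came from few copies. HAL1 had 8238 copies in the 5-FU table, and 212 of them held 50% of its counts. For HAL1b 8 of 1514 copies held that share, for HAL1ME 5 of 2504 and for HAL1M8 6 of 800. The most counted copy took 10.4% of the HAL1 counts in the 5-FU table (chrX:77381964-77382888), 16.7% of the HAL1b counts (chr17:33594769-33595457), 24.6% of the HAL1ME counts (chr7:143549500-143550164) and 21.5% of the HAL1M8 counts (chr2:3589617-3590113). Coordinates are those of the deposited tables, in hg19.

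The annotation can split one inserted element into several copies. Copies of a name with gaps of at most 10 kb were therefore chained into stretches, which reduced the 13056 copies of the 5-FU table to 7283 stretches. A stretch need not be a single insertion. In the HAL1ME stretch on chromosome 7, for example, adjacent copies cover the overlapping consensus bases 2130 to 2460 and 2166 to 2315. The most counted HAL1b copy belonged to a stretch of 5 copies at chr17:33594335-33597296 that together held 30.1% (5-FU table) and 53.3% (Nutlin table) of the HAL1b counts. For HAL1ME the stretch had 6 copies at chr7:143548494-143551288 with 47.4% and 49.6% of the counts, and for HAL1M8 it had 3 copies at chr2:3588401-3590600 with 37.6% and 47.6%. The HAL1 copy on chromosome X stood alone.

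Along the repeat consensus, the sequence all copies of a name are aligned to, these stretches and the chrX copy raised parts of each profile. In none of the 3 smaller names did leaving the stretch out move the highest bin. In the 5-FU table HAL1b had 235 counts per kb in the first 500 bases of its consensus and 56.4 between bases 1001 and 1500. Without the chromosome 17 stretch these values were 107 and 55.4, so the 5′ end stayed the most counted part at a smaller margin. HAL1ME was highest between bases 2001 and 2500, with 164 counts per kb and 81.4 without its chromosome 7 stretch, and the bin before it went from 101 to 39.0. HAL1M8 was highest in the same bin, with 101 counts per kb and 54.9 without its chromosome 2 stretch. Between bases 1001 and 1500 it went from 88.4 to 30.4. HAL1, with counts spread over many copies, had 42.4 in the first bin and 66.2 between bases 2001 and 2500. Without the chromosome X copy these values were 42.4 and 54.7, and between bases 1501 and 2000 HAL1 went from 51.0 to 40.9.

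**Figure D1:**
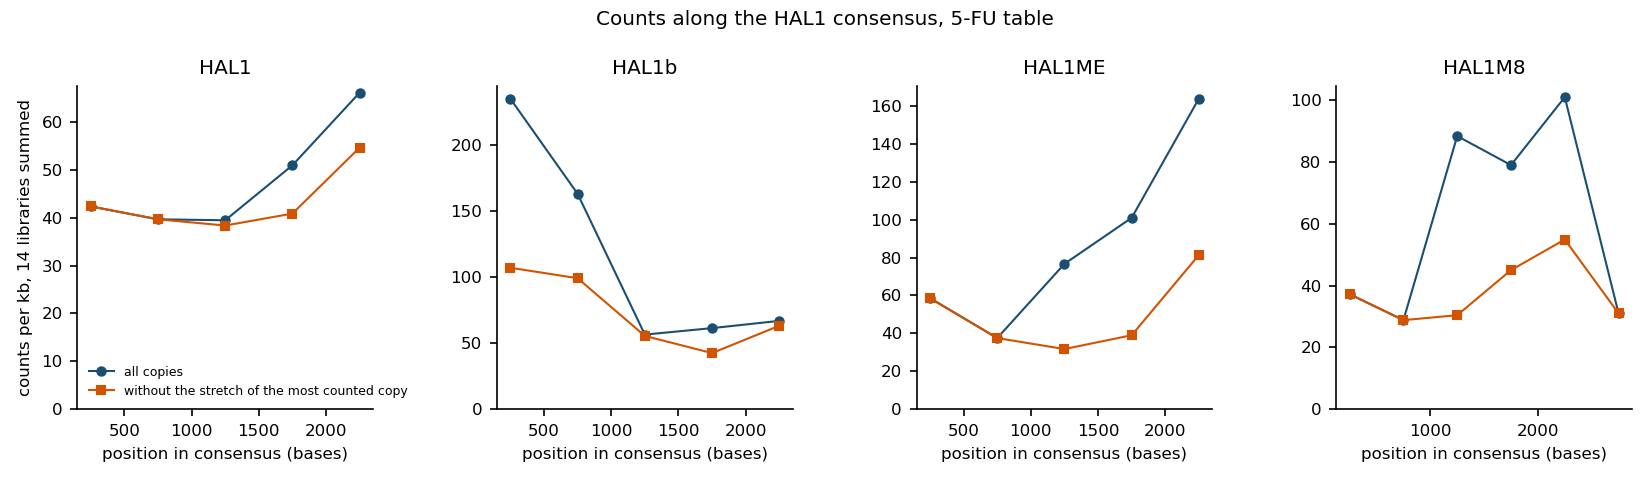
Counts per kb of annotated sequence, summed over the 14 libraries of the 5-FU table, against position in the consensus of each HAL1 name (bases, in bins of 500, bins with little sequence left out). Circles show all copies and squares leave out the stretch of the most counted copy, which lowers HAL1b from 235 to 107 counts per kb in the first bin and HAL1M8 from 88.4 to 30.4 between bases 1001 and 1500.

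Under Nutlin, HAL1b was the one HAL1 name that was clearly higher. Its summed level was 221 and 212 CPM in the DMSO libraries, 209 CPM in the untreated library, and 467 and 431 CPM in the Nutlin libraries. Both Nutlin libraries thus stood above all the others, and the log2 fold change was 1.05 (SE 0.09). HAL1ME was lower, with 363 and 337 CPM in DMSO against 292 and 281 CPM in Nutlin, and a log2 fold change of -0.29 (SE 0.08). HAL1 had a log2 fold change of -0.12 (SE 0.08) and HAL1M8 one of 0.06 (SE 0.1). HAL1b and HAL1ME were past the threshold for a call, as were 12.7% of all 1028 names. Nothing is read from this, because the names were chosen on these values, and HAL1ME was not past it when DMSO replicate 2 or either Nutlin library was left out.

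The HAL1b difference lay in the chromosome 17 stretch. Without its most counted copy the log2 fold change of HAL1b was 0.69 (SE 0.09), and without all 5 copies of the stretch it was 0.09 (SE 0.09). The remaining HAL1b copies then had 135 and 139 CPM in DMSO, 143 CPM untreated, and 155 and 137 CPM in Nutlin, so the groups overlapped. HAL1ME had a log2 fold change of -0.15 (SE 0.09) without its chromosome 7 stretch, and HAL1M8 one of -0.2 (SE 0.11) without its chromosome 2 stretch.

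**Figure D2:**
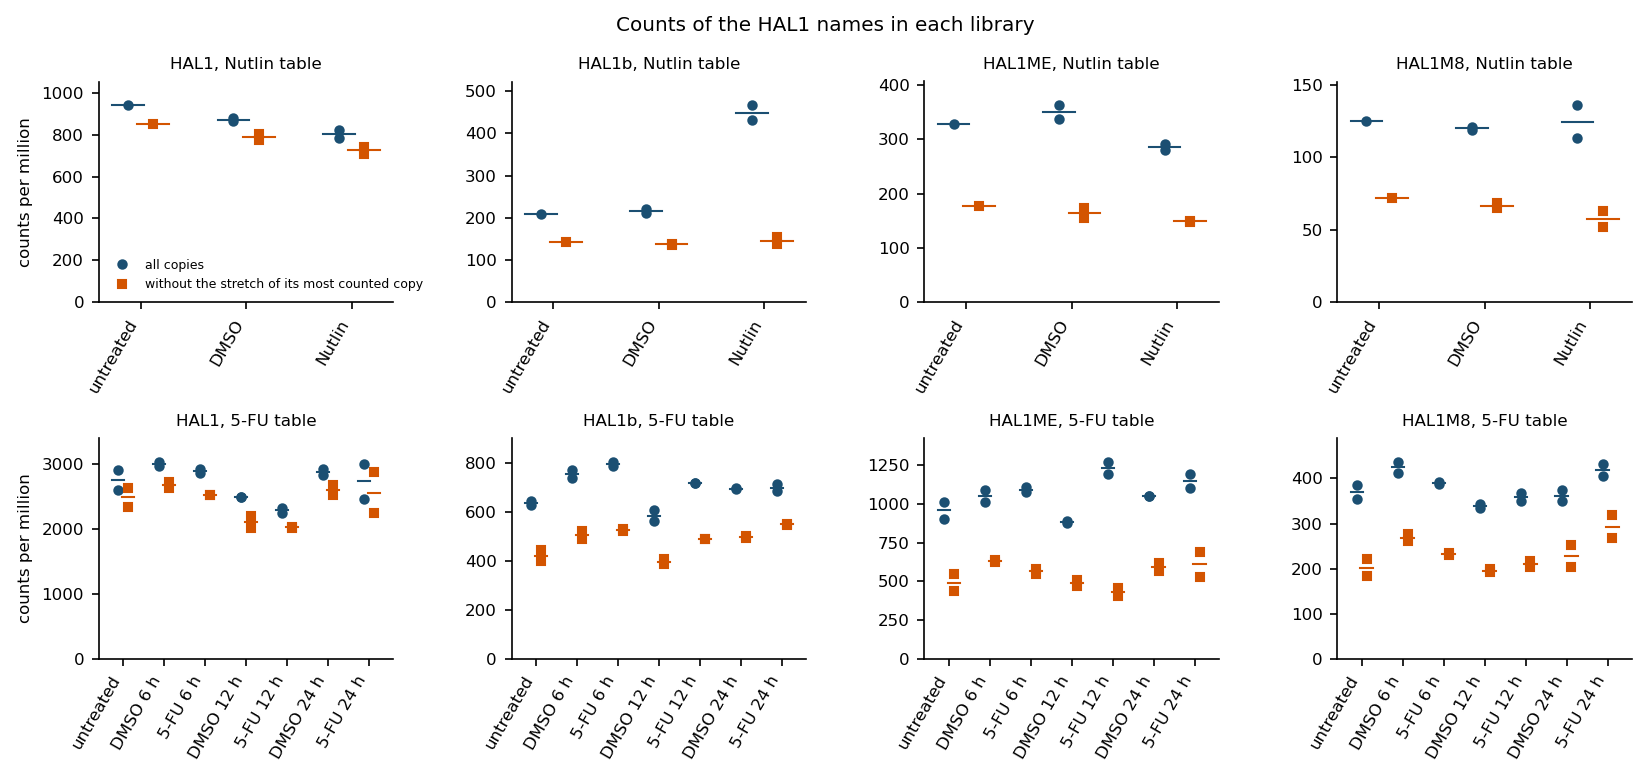
Level (CPM) of each HAL1 name in every library of the Nutlin table (top) and the 5-FU table (bottom), with circles for all copies, squares without the stretch of the most counted copy, and lines for group means. HAL1b stands at 467 and 431 CPM in the Nutlin libraries against 221 and 212 CPM in DMSO, and the squares of the same name lie between 135 and 155 CPM in all 5 libraries.

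The 5 fragments of the chromosome 17 stretch together had 806 and 673 counts in the DMSO libraries (87.1 and 70.1 CPM), 768 counts in the untreated library (71.7 CPM), and 3258 and 2478 counts in the Nutlin libraries (287 and 299 CPM). The group means were 78.6 ± 12.0 CPM (SD, n = 2) in DMSO and 293 ± 8.53 CPM (SD, n = 2) in Nutlin. The copy at chr17:33594769-33595457, which covers bases 90 to 857 of the consensus, had 447 and 374 counts in DMSO and 1820 and 1406 in Nutlin. All 5 fragments were higher by similar amounts, with log2 fold changes from 1.69 to 2.2, although their lengths ran from 73 to 689 bases.

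This height was measured under Nutlin and in none of the 5-FU comparisons. At 6 h of 5-FU the stretch had 246 and 248 CPM against 249 and 248 CPM in DMSO. At 12 h it had 228 and 231 CPM against 207 and 237 CPM, and at 24 h 157 and 131 CPM against 198 and 193 CPM. The 24 h libraries lay below their controls, but no fragment of the stretch was called at any time. The fitted log2 fold changes of the fragments lay between -0.75 and 0.49, and the lowest adjusted p was 0.0867 in edgeR's quasi-likelihood test. The difference between the Nutlin and the 5-FU effect itself was not tested, since the tables were counted separately.

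**Figure D3:**
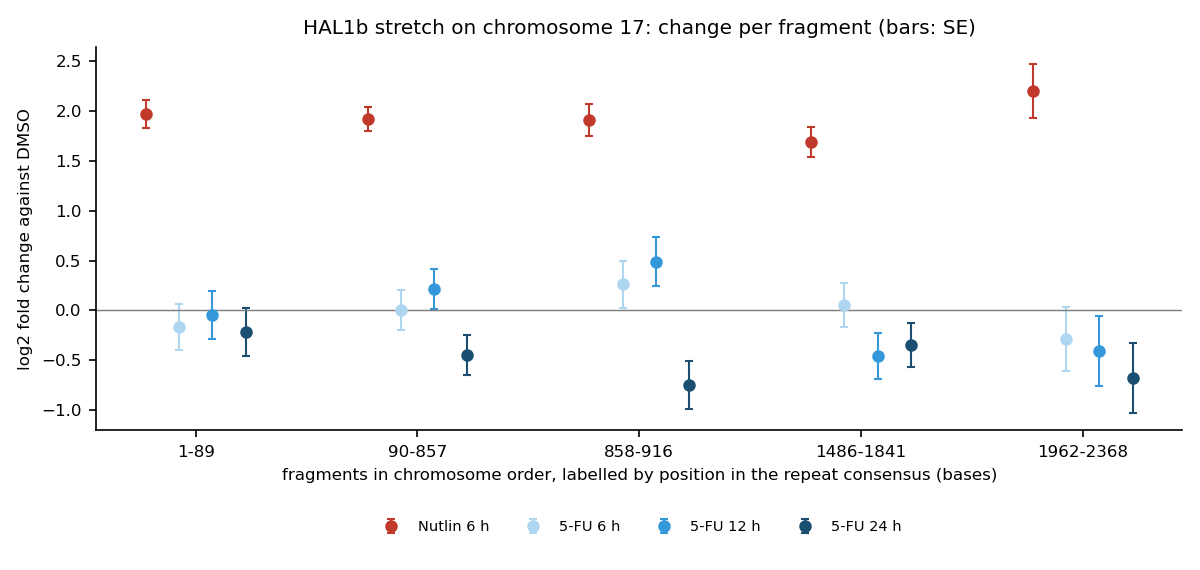
Log2 fold change against DMSO, with its standard error, of the 5 HAL1b fragments of the chromosome 17 stretch, in chromosome order and labelled by their position in the repeat consensus. The Nutlin values lie between 1.69 and 2.2 in every fragment, and the 5-FU values between -0.75 and 0.49.

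Copies could be fitted singly only where their counts passed edgeR's filter on low counts. Of the 8364 HAL1 copies of the Nutlin table, 140 passed (90 HAL1, 20 HAL1b, 19 HAL1ME and 11 HAL1M8), and they held 58.0% of the HAL1 counts. Of these, 10 were past the threshold as higher and 15 as lower under Nutlin, which is 17.9% beside 9.57% of all 21328 copies tested (5.36% higher and 4.21% lower). Since the choice of HAL1 used this comparison, nothing is read from these shares, and the threshold only marks the copies that are described here. The 25 copies fell into 16 stretches, so these counts are not counts of independent loci. Without Nutlin replicate 1, only 4 copies were past it. The median log2 fold change was -0.21 over the HAL1 copies and 0.01 over all copies.

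Among the copies lower under Nutlin, a HAL1 stretch of 7 fragments at chr10:96364280-96367124 stood out. It had 269 and 234 counts in DMSO, 302 counts untreated, and 105 and 69 counts in Nutlin, so the Nutlin libraries lay below all the others. Of its 7 fragments 5 were past the threshold as lower, with log2 fold changes from -2.87 to -1.15. A HAL1 stretch at chr22:24970336-24973176 had 2 of 4 fragments past the threshold as lower. Its fragment at chr22:24970336-24970511 went from 210 and 227 counts in DMSO to 127 and 95 in Nutlin. The HAL1b copy at chr17:33737496-33737799 went from 128 and 155 counts to 77 and 44. That copy lies on the same chromosome as the high HAL1b stretch but moved the other way.

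The highest copies outside the chromosome 17 stretch were single fragments with few counts in DMSO. The fragments on chromosomes 8 and 9 are outside the rule for naming single copies and were picked after their values were seen. A HAL1 fragment at chr12:69230125-69230321 had 14 and 0 counts in DMSO, 16 untreated, and 218 and 186 in Nutlin, with a log2 fold change of 4.78 (SE 0.5). A HAL1M8 fragment at chr8:22871309-22871731 had a log2 fold change of 3.12 (SE 0.42), and a HAL1b fragment at chr9:19453423-19453532 one of 2.29 (SE 0.36). Neither belongs to a stretch with a second called copy.

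The Nutlin calls were then followed into the 5-FU comparisons, whose drug and DMSO libraries are separate. Of the 10 copies past the threshold as higher under Nutlin, 3 were called higher at 5-FU 12 h and 2 at 24 h. Over all such copies that were tested in the 5-FU table, 21.4% of 1062 were called higher at 12 h and 15.3% at 24 h, beside 5.44% and 2.42% of all copies. In the other direction, 77 of the 1062 were called lower at 12 h and 34 at 24 h. Only 5 of the 10 had a fold change above 0 at 12 h and 5 at 24 h, and these were not all the same copies. Of the 10, 5 were fragments of the chromosome 17 stretch. The 3 called higher at 12 h were the fragments on chromosomes 12, 8 and 9 just named. At 12 h their log2 fold changes were 2.64 (adjusted p = 0.000816), 3.47 (adjusted p = 0.00105) and 3.29 (adjusted p = 0.0283) in edgeR's quasi-likelihood test, and the last of these missed the threshold in 6 of 11 alternative settings. At 24 h the chromosome 8 fragment was at 2.45 (adjusted p = 0.00382) and the chromosome 12 fragment at 1.45 (adjusted p = 0.0329), a call that was lost in 7 of 11 alternatives. The chromosome 12 fragment had 9 and 4 counts in DMSO 12 h and 63 and 42 in 5-FU 12 h, and 16 and 26 in DMSO 24 h against 53 and 55 in 5-FU 24 h.

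Of the 15 copies past the threshold as lower under Nutlin, 5 were called lower at 5-FU 12 h and 6 at 24 h, most of them fragments of the chromosome 10 stretch. Over all such copies 13.7% of 889 were called lower at 12 h and 26.4% at 24 h, beside 4.27% and 1.82% of all copies. At 12 h nearly as many of the 889 went the other way, with 122 called lower and 114 called higher, and 51.4% had a fold change below 0. At 24 h 235 were called lower and 28 higher. Of the 15, 8 had a fold change below 0 at 12 h and 10 at 24 h. The HAL1ME copy at chr5:68473891-68474007 was among those at 24 h. It had 90 and 76 counts in DMSO 24 h and 11 and 22 in 5-FU 24 h, a log2 fold change of -2.3 (SE 0.41, edgeR adjusted p = 0.00148), after one of -1.36 (SE 0.24) under Nutlin. The HAL1b copy at chr17:33737496-33737799 went against its Nutlin direction. It had 59 and 74 counts in DMSO 12 h and 220 and 231 in 5-FU 12 h, a log2 fold change of 1.39 (SE 0.25, edgeR adjusted p = 0.00115).

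After 6 h of 5-FU no HAL1 name or copy was called. The fitted log2 fold changes of the names lay between -0.12 for HAL1M8 and 0.08 for HAL1b. Of the 505 HAL1 copies that passed the filter in the 5-FU table (350 HAL1, 58 HAL1b, 63 HAL1ME and 34 HAL1M8), none was called by edgeR or DESeq2, and 38 had an unadjusted p under 0.05 in edgeR and 27 in DESeq2. Over all features 0% of the 1078 names and 0.101% of the 63602 copies were called. None of the 4 HAL1 names had an unadjusted p under 0.05 in edgeR, and 1 did in DESeq2. The median log2 fold change was -0.16 over the HAL1 copies and -0.0 over all copies.

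At 12 h of 5-FU HAL1ME and HAL1b were called higher, and HAL1 and HAL1M8 were not called. HAL1ME had 879 and 891 CPM in DMSO and 1194 and 1271 CPM with 5-FU, a log2 fold change of 0.48 (SE 0.08, edgeR adjusted p = 0.000323). HAL1b had 562 and 607 CPM in DMSO and 717 and 718 CPM with 5-FU, a log2 fold change of 0.3 (SE 0.07, edgeR adjusted p = 0.00346). HAL1 had 2485 and 2495 CPM against 2326 and 2244 CPM, and HAL1M8 had 343 and 334 CPM against 368 and 351 CPM. Their log2 fold changes of -0.12 (edgeR adjusted p = 0.301) and 0.09 (edgeR adjusted p = 0.408) were not called. HAL1 was however called lower in 7 of 16 alternative settings, with log2 fold changes from -0.69 to -0.06 over the 16. Of all 1078 names 33.8% were called, beside 2 of the 4 HAL1 names.

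The 2 calls depended on the scaling of the libraries and on the controls. The median log2 fold change of all names at 12 h was 0.17 with the factors used here, -0.11 with relative log expression (RLE) factors and -0.4 when only library size was used. The share of called names that were higher was 84.3%, 41.2% and 12.3% under these scalings. HAL1b was at 0.01 (edgeR adjusted p = 0.913) with RLE factors and at -0.01 (edgeR adjusted p = 0.858) against the DMSO libraries of 6 h and 24 h. HAL1ME was at 0.19 (edgeR adjusted p = 0.0559) with RLE factors, at -0.09 (edgeR adjusted p = 0.543) with library size alone and at 0.23 (edgeR adjusted p = 0.0117) against the other DMSO libraries. Without 5-FU replicate 2 neither name was called, with edgeR adjusted p = 0.0552 for HAL1ME and 0.27 for HAL1b. HAL1b was also lost without 5-FU replicate 1 (edgeR adjusted p = 0.27) and without DMSO replicate 1 (edgeR adjusted p = 0.0521). Relative to the median of all names, HAL1ME stood 0.31 and HAL1b 0.12 above it, and HAL1 0.3 and HAL1M8 0.08 below it. The 6 scalings tried moved none of these by more than 0.05. A new scaling shifts all names by nearly the same amount, so this could hardly come out otherwise, and nothing is read from it.

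The position of HAL1ME came from its chromosome 7 stretch. Without that stretch HAL1ME had 510 and 467 CPM in DMSO 12 h and 403 and 458 CPM in 5-FU 12 h, and its log2 fold change turned to -0.18 (SE 0.13, edgeR adjusted p = 0.3). The stretch itself had 1174 and 1327 counts in DMSO 12 h and 2685 and 2836 in 5-FU 12 h (435 and 508 CPM against 789 and 824 CPM). Its fragment at chr7:143548981-143549129 had 41 and 45 counts in DMSO 12 h and 377 and 416 in 5-FU 12 h, a log2 fold change of 2.84 (SE 0.26, edgeR adjusted p = 7.5e-07). The DMSO 12 h libraries stood apart in this fragment: DMSO had 255 and 334 counts at 6 h and 353 and 382 at 24 h. Against those libraries the log2 fold change was 0.89 (edgeR adjusted p = 0.00361). The most counted copy next to it went from 721 and 736 counts in DMSO 12 h to 1429 and 1516 in 5-FU 12 h, at a log2 fold change of 0.65 (SE 0.23, edgeR adjusted p = 0.0723). HAL1b did not depend on its stretch at 12 h, with a log2 fold change of 0.3 (SE 0.07, edgeR adjusted p = 0.0063) without it.

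At the level of copies, 24 of 505 HAL1 copies were called higher and 25 lower at 12 h. This is 9.7%, beside 9.71% of all copies tested (5.44% higher and 4.27% lower), so the share of HAL1 copies called was that of the background. The 24 and the 25 copies each fell into 19 stretches. Leaving out any 1 of the 4 libraries left 22 to 26 copies called. The median log2 fold change was -0.37 over the HAL1 copies and -0.04 over all copies. Against the DMSO libraries of 6 h and 24 h, 72 HAL1 copies were called, 39 of them shared with the 49 and in the same direction, while 2 of the 49 changed sign.

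The copies that were higher at 12 h included 2 of the 5 fragments of a HAL1M8 stretch at chr8:145265899-145268937, the 2 that passed the filter. The fragment at chr8:145267794-145268327 had 33 and 15 counts in DMSO 12 h and 179 and 121 in 5-FU 12 h (12.2 and 5.74 CPM against 52.6 and 35.1 CPM), a log2 fold change of 2.28 (SE 0.37, edgeR adjusted p = 0.000489). At 24 h it had 67 and 57 counts in DMSO and 208 and 201 with 5-FU. A HAL1 copy of 877 bases at chr15:71584138-71585014 had 36 and 26 counts in DMSO 12 h and 143 and 124 in 5-FU 12 h, a log2 fold change of 1.74 (SE 0.29, edgeR adjusted p = 0.000623). Its DMSO 12 h mean of 11.6 CPM lay below the untreated mean of 20.5 CPM, and against DMSO 6 h and 24 h the log2 fold change was 1.15. The groups do not overlap in these copies, which the rule for naming them required.

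The copies with the smallest p among those lower at 12 h were a HAL1ME fragment on chromosome 2 and a HAL1b copy on chromosome 10. The HAL1ME fragment at chr2:114716648-114716748 went from 109 and 117 counts to 20 and 21, a log2 fold change of -2.82 (SE 0.28, edgeR adjusted p = 2.09e-06). The HAL1b copy at chr10:50665569-50665991 went from 67 and 84 counts to 11 and 12, a log2 fold change of -3.07 (SE 0.33, edgeR adjusted p = 5.47e-06). Their DMSO 12 h means, 42.6 and 28.5 CPM, stood above the untreated means of 20.1 and 12.1 CPM. Against the DMSO libraries of 6 h and 24 h the log2 fold changes were -2.18 and -2.34. Both kept their calls in all 12 alternatives, and both were called lower again at 24 h with smaller differences, of -1.38 and -1.25 on the log2 scale. A further 5 copies called lower had no count in either 5-FU 12 h library. These 5, picked after their values were seen, were at least 1.94-fold to 3.21-fold lower, taking 3 counts per library as the floor. They lay near that floor in other libraries too, with 3 to 9 counts in the DMSO 12 h libraries and 2 to 14 in the 5-FU 24 h libraries.

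At 24 h no HAL1 name was called by edgeR or DESeq2, against 12.1% of all names. HAL1M8 was nearest, with 349 and 375 CPM in DMSO and 432 and 405 CPM with 5-FU, a log2 fold change of 0.21 (SE 0.08, edgeR adjusted p = 0.0933). It was the 1 name with an unadjusted p under 0.05 in edgeR, and there was none in DESeq2. Of the copies, 11 were called higher and 14 lower, which is 4.95% beside 4.23% of all copies (2.42% higher and 1.82% lower). The 14 lower copies fell into 8 stretches. Without either DMSO 24 h library 14 copies were called, and without 5-FU replicate 2, 2 names were called. The median log2 fold change was -0.06 over the HAL1 copies and 0.0 over all copies.

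The 12 h and 24 h calls overlapped in part. Of the copies called, 16 were called at both times, 8 higher and 8 lower, and none changed direction. The 16 are 32.7% of the 12 h calls and 64.0% of the 24 h calls, and the 2 times have separate drug and DMSO libraries. Of the 8 lower copies, 6 were fragments of the HAL1 stretch at chr10:96364280-96367124, so these are not counts of independent loci. Over all copies the shared calls were 20.3% of 6177 at 12 h and 46.6% of 2693 at 24 h, and the difference between HAL1 and all copies was not tested. The HAL1 copy at chr10:32292174-32292560 was high at both times, with 4 and 1 counts in DMSO 12 h, 38 and 36 in 5-FU 12 h, 6 and 4 in DMSO 24 h and 36 and 59 in 5-FU 24 h. Its 24 h log2 fold change was 3.24 (SE 0.54, edgeR adjusted p = 0.000849). A HAL1 copy at chr14:104176482-104176794 had 5 and 3 counts in DMSO 24 h and 22 and 45 in 5-FU 24 h, a log2 fold change of 3.03 (SE 0.58, edgeR adjusted p = 0.00304). The second HAL1M8 fragment of the chromosome 8 stretch, at chr8:145266654-145266972, had 1 and 5 counts in DMSO 24 h and 38 and 39 in 5-FU 24 h, a log2 fold change of 3.72 (SE 0.64, edgeR adjusted p = 0.00115).

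The chromosome 10 HAL1 stretch held 7 of the 14 copies called lower at 24 h. It had 217 and 282 counts in DMSO 24 h and 12 and 18 in 5-FU 24 h (40.6 and 48.5 CPM against 2.78 and 2.79 CPM). At 12 h it had 101 and 113 counts in DMSO and 21 and 13 with 5-FU, and at 6 h 153 and 136 against 86 and 98. The untreated libraries had 302 and 184 counts, or 75.6 and 55.0 CPM, which is above every DMSO library (26.6 to 48.5 CPM). The 5-FU libraries lay below their own controls at each time, and 0, 6 and 7 of its 7 fragments were called lower at 6, 12 and 24 h. The fragment at chr10:96364409-96364842 had 57 and 80 counts in DMSO 24 h and 1 and 2 in 5-FU 24 h, a ratio of 44.1 in CPM (95% exact interval 14.8 to 217, counting error only), with edgeR adjusted p = 8.97e-06. The fragment at chr10:96366494-96366897 went from 61 and 58 counts to 3 and 3, a log2 fold change of -4.19 (SE 0.45, edgeR adjusted p = 5.92e-06). The 7 fragments cover parts of the consensus from base 118 to base 2206. The call of the shortest, at chr10:96364280-96364340, was lost in 6 of 11 alternatives at 24 h, and its adjusted p ranged from 0.0121 to 0.172 in edgeR and DESeq2.

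**Figure D4:**
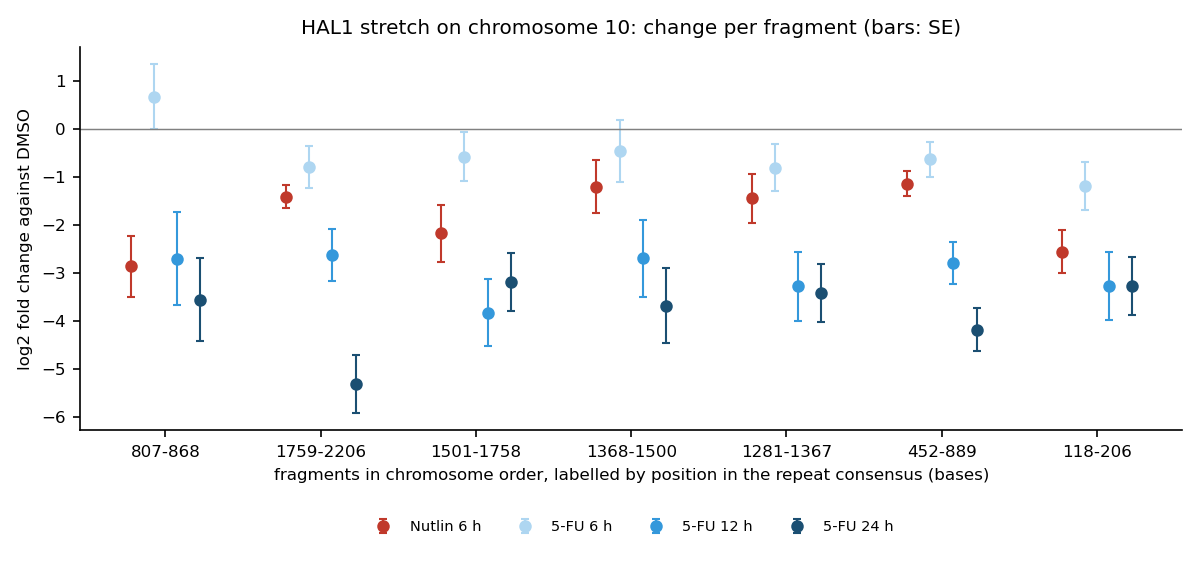
Log2 fold change against DMSO, with its standard error, of the 7 HAL1 fragments of the chromosome 10 stretch, in chromosome order and labelled by their position in the repeat consensus. The 24 h values lie between -5.32 and -3.19, the Nutlin values between -2.87 and -1.15, and the 6 h values of 5-FU are the nearest to 0.

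Whether the 5-FU effect at 24 h differed from that at 6 h was tested as an interaction. Of the 505 HAL1 copies 3 were called, all lower, which is 0.594% beside 0.385% of all copies, and no name was called by edgeR or DESeq2 against 1.11% of all names. In each tool 1 name had an unadjusted p under 0.05, in edgeR HAL1M8 with a log2 difference of 0.33 (adjusted p = 0.265). The called copies were 2 fragments of the chromosome 10 stretch and a HAL1 copy at chr5:79922256-79922684. For the fragments at chr10:96364409-96364842 and chr10:96366494-96366897 the 24 h effect was lower than the 6 h effect by 4.52 (edgeR adjusted p = 0.00621) and 3.55 (edgeR adjusted p = 0.00537) on the log2 scale, which is to say that the differences were -4.52 and -3.55. Both calls were kept in all 15 alternatives. Over the HAL1 copies the median difference was 0.1, and over all copies 0.04.

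DMSO itself differed little from no treatment in the HAL1 names. In the 5-FU table the 3 DMSO groups were averaged and set against the untreated libraries, and the log2 differences of the 4 names lay between 0.01 and 0.08. No name was called by edgeR and none had an unadjusted p under 0.05, while DESeq2 called 1, against 11.8% of all names called by edgeR. Of the copies 4 were called higher in DMSO and 1 lower, which is 0.99% beside 1.66% of all copies, and the median was 0.11 against 0.01. The HAL1ME fragment at chr3:145786338-145786523 had 2 and 1 counts untreated and 15 to 26 in the 6 DMSO libraries, a log2 difference of 3.46 (SE 0.57, edgeR adjusted p = 0.00236). The HAL1 copy at chr2:216278259-216278690 was higher by 0.99 (SE 0.18, edgeR adjusted p = 0.00535), and the HAL1 copy at chr5:79922256-79922684 was lower, at -0.88 (SE 0.17, edgeR adjusted p = 0.00859). All 5 calls were lost when either untreated library was left out.

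Most HAL1 copies called under 5-FU had the sign of the other repeats around them, and the Nutlin values beside them are a description. For each named copy, the other repeat copies within 10 kb were taken from the same fit. Around the HAL1b stretch on chromosome 17 all 11 tested neighbours were past the threshold as higher under Nutlin. Their median log2 fold change was 2.85 (1.7 to 3.25), larger than that of the HAL1b fragments. Around the chromosome 10 HAL1 stretch all 24 tested neighbours were lower under Nutlin with a median of -1.21, and all 26 tested in the 5-FU table were lower at 24 h, 22 of them called, with a median of -3.64. Around the chromosome 12 fragment all 26 neighbours were higher at 5-FU 12 h, 15 of them called, with a median of 2.85. Around the HAL1b copy at chr10:50665569-50665991 all 11 were lower at 12 h, with a median of -2.43.

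In the main fit the most counted HAL1 copy, at chrX:77381964-77382888, was not called in any 5-FU comparison, but some of its neighbours were. The copy was called lower in 7 of 12 alternative settings at 12 h and in 3 of 11 at 24 h. Its DMSO 12 h libraries lay far apart, with 894 and 1479 counts (331 and 566 CPM), against 983 and 809 counts in 5-FU 12 h (289 and 235 CPM). At 12 h it had a log2 fold change of -0.78 beside a median of -0.71 over its 18 neighbours, 15 of them lower and 4 called lower. At 24 h it had -0.71 beside a median of -1.03, with 16 lower and 6 called lower. Under Nutlin the copy and the median of its 10 neighbours were both at -0.17. The HAL1M8 copy on chromosome 2 had -0.18 at 12 h and -0.09 at 24 h, and its 10 neighbours a median of 0.04 and -0.17. The HAL1 copy at chr10:32292174-32292560, higher at 24 h by 3.24 on the log2 scale, had 1 tested neighbour within 10 kb, and that stood at -1.44. The chromosome 7 HAL1ME stretch had 4 tested neighbours within 10 kb, none of them called at 12 h, with a median of 0.36. Within 50 kb it had 11, with a median of -1.0.

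Over all HAL1 copies with at least 3 tested neighbours, the log2 fold change of the copy was compared with the median of its neighbours. Under Nutlin Pearson's r was 0.89 and Spearman's rho 0.84 over 73 copies, but nothing is read from these, since the choice of HAL1 used that contrast. At 5-FU 6, 12 and 24 h r was 0.24, 0.58 and 0.74 and rho 0.36, 0.59 and 0.61 over 327 copies. These are descriptions across copies that share libraries and scaling. Whether a copy and its neighbours share a transcript was not tested. Of the called copies, 36 of 38 at 12 h and 22 of 22 at 24 h had the sign of their neighbours. Of the copies not called, 66.1% at 12 h and 67.9% at 24 h had it. Under Nutlin 18 of 18 copies past the threshold and 78.2% of the others had it, and nothing is read from these shares either. Copies of the same stretch share neighbours, and 12 of the 25 copies past the threshold under Nutlin lay in 3 stretches. No such values are given for copies of other names.

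**Figure D5:**
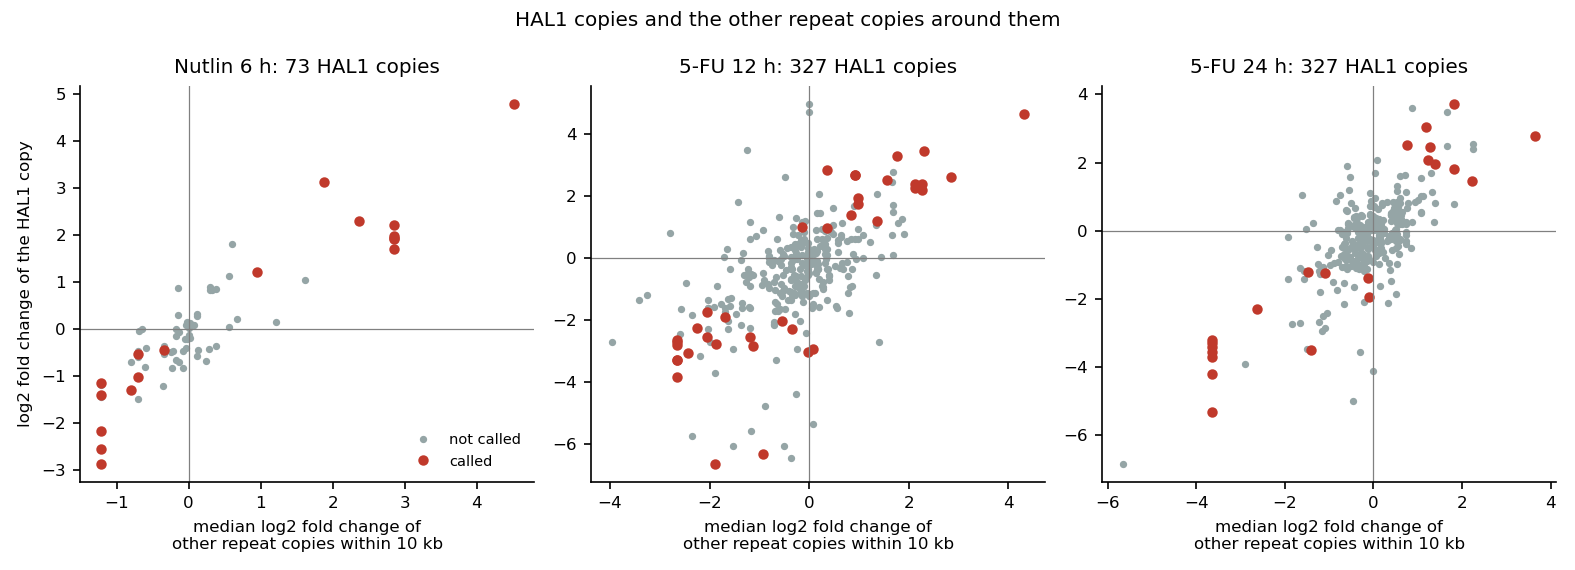
Log2 fold change of each HAL1 copy against the median log2 fold change of the other tested repeat copies within 10 kb, for copies with at least 3 such neighbours (73 for Nutlin, 327 for 5-FU). Red points are called copies, of which 36 of 38 at 12 h and 22 of 22 at 24 h share the sign of their neighbours. For Nutlin they are copies past the threshold, 18 of 18 with that sign, and nothing is read from this since the choice of HAL1 used that contrast.

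HAL1 copies were set beside those of related L1 names, without a test of the differences. At 12 h 9.7% of the HAL1 copies were called, 12.3% of the copies of L1PA and L1PB, the youngest group, and 8.94%, 8.58% and 9.79% of those of L1MA and L1MB, L1MC and L1MD, and L1ME. The median log2 fold change at 12 h was -0.37 for the HAL1 copies, between -0.72 and -0.48 for the 4 L1 groups, and -0.13 for L2, an older LINE family. At 24 h the share called was 4.95% for HAL1, 3.78% to 4.19% for the L1 groups, 3.38% for L2 and 4.23% for all copies. Of the 25 HAL1 copies behind that share 7 were fragments of the chromosome 10 stretch, so it is not read as a trait of HAL1. In the 24 h minus 6 h effect the share called was 0.594% for HAL1, which is 3 copies, 2 of them from that stretch. It was 0.115% to 0.403% for the other groups and 0.385% for all copies. At 24 h the medians were -0.06 for HAL1, -0.08 to 0.02 for the L1 groups and -0.13 for L2. Nothing is compared under Nutlin, since the choice of HAL1 used that contrast.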

How the data were processed

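Per the deposited tables, the authors counted reads per annotated repeat copy in 2 tables, one with the untreated, DMSO and Nutlin libraries and one with the untreated, DMSO and 5-FU libraries. The deposited values are raw whole-number counts, with no normalization. The submitters' processing notes name genome build hg19, Trimmomatic 0.32, cutadapt 1.10, Bowtie2, edgeR and DESeq2. How reads that fit several copies were counted, and whether strand was used, is not given in the sources used here, so counts of near-identical copies can be uncertain. Libraries were made with a stranded total RNA kit, per the labels' protocols.

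Names were tested on counts summed over all their copies, and copies singly, with edgeR 4.0.16 (R 4.3.3, limma 3.58.1) in 1 quasi-likelihood fit per table with group means. Low counts were removed with edgeR's own filter, for the Nutlin table over its 4 DMSO and Nutlin libraries. Trimmed mean (TMM) factors came from all copies for names and from the copies past the filter for copies, with library sizes from all copies, so CPM of names and of copies differ slightly in scale. Adjusted p is Benjamini-Hochberg over each table, with a threshold of 0.05. DESeq2 1.42.0 was an alternative, and Python 3.11.15 with pandas 2.3.3, numpy 2.4.6, scipy 1.17.1 and matplotlib 3.10.9 made the summaries and figures. Other alternatives were RLE factors, library size alone, other TMM factors, no filter, no structural RNA, only the libraries compared, a replicate block, each library left out, and sums without the most counted copy or its stretch. The last of these and TMM factors from the copies past the filter (applied to names) were chosen after seeing the data.

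The fit was tested on simulated counts with 200 changed features. For Nutlin it recovered 33% of copies changed 2-fold and 70% of those changed 4-fold, over 21328 copies, and for 5-FU 12 h 2% and 21%, over 63602 copies. For names it recovered 91% and 99% (Nutlin, 1028 names) and 89% and 96% (5-FU 12 h, 1078 names). False calls were 6.36% of the 110 calls of copies for Nutlin and 14.8% of the 27 for 5-FU 12 h. For names they were 2.56% (Nutlin) and 5.13% (5-FU 12 h) of 195 calls each. The simulation changed 200 features, while 6177 copies were called in the data at 5-FU 12 h. The share of false calls among those was not tested.

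Named copies are the most counted copy of each name, the up to 4 called copies of smallest p in each direction per drug comparison with a log2 fold change of 1 or more in size and no overlap between groups, and up to 2 per direction in the other comparisons. The HAL1 names, the related names and the rules were chosen with earlier results of these data known. No hg19 genome or annotation was used here, so no copy is placed in a gene and no sequence is shown. Counting intervals cover counting error only, since amplified reads are not independent molecules.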

Additional observations from a re-analysis of the deposited data

Results flagged for a closer look

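The 5-FU effect at 24 h differed from that at 6 h in 3 HAL1 copies, by a test of the difference itself (the interaction in edgeR's quasi-likelihood fit). In the HAL1 fragment at chr10:96364409-96364842 the 24 h effect minus the 6 h effect was -4.52 on the log2 scale (adjusted p = 0.00621). In the fragment at chr10:96366494-96366897 of the same stretch it was -3.55 (adjusted p = 0.00537). All 26 tested neighbours of the stretch within 10 kb had the same sign, with a median of -2.84.

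In the HAL1 copy at chr5:79922256-79922684 the difference was -1.42. It had 45.2 and 47.1 CPM in DMSO 6 h and 55.1 and 52.7 CPM in 5-FU 6 h, and 72.6 and 68.0 CPM in DMSO 24 h and 38.0 and 23.9 CPM in 5-FU 24 h. Its call was lost in 7 of 15 alternatives. The same copy was called lower in DMSO than untreated, at 108 CPM in the untreated libraries, and all 6 DMSO libraries lay below that, the 24 h ones at 72.6 and 68.0 CPM and the 12 h ones at 56.3 and 68.1 CPM.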

How the results depend on the processing

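Under Nutlin 2 HAL1 names were called, 1 without the most counted copies and 0 without their stretches, and DESeq2 called 16 copies in place of 25. At 5-FU 12 h 1 name was called in place of 2 with RLE factors, with DESeq2 and without the stretches. With RLE factors that name was neither HAL1b nor HAL1ME, and HAL1 was called lower in 7 of 16 alternatives at 12 h. Library size alone also called 2, both lower, and no filter left 31 copies called in place of 49. For DMSO against untreated, where no name was called, RLE factors, DESeq2 and the fit on only the libraries compared called 1 and TMM factors from the copies past the filter 2, and the copies called went from 5 to 11 with library size alone and 14 with only the libraries compared. Of log2 fold changes 892 values kept direction and side of the threshold, 65 lost and 31 gained a call, and 65 changed sign.

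With each library left out in turn, the names called ranged from 1 to 2 under Nutlin, 0 to 2 at 12 h, 0 to 2 at 24 h, 0 to 1 for the 24 h minus 6 h effect, and 0 to 0 for DMSO against untreated. The copies called ranged from 4 (without Nutlin replicate 1) to 27, 22 to 26 at 12 h, 14 to 25 at 24 h, 2 to 4 for the interaction, and 0 (without either untreated library) to 5.

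Some names and single copies changed sign, among them HAL1b and HAL1ME at 12 h, which were called higher, and HAL1M8 at 12 h, which was called lower with library size alone (edgeR adjusted p = 0.00404). At 12 h HAL1M8 was at -0.2 with RLE factors and DESeq2, -0.15 with TMM from filtered copies, -0.08 with TMM from name sums, -0.07 with only the libraries compared, -0.12 against DMSO 6 h and 24 h, and -0.48 with library size alone. With RLE factors and with DESeq2 HAL1 was at 0.03 in the interaction, HAL1ME at -0.09 and HAL1b at -0.08 at 6 h, and HAL1b at -0.1 at 24 h. With TMM from filtered copies these were 0.04, -0.06, -0.05 and -0.05. With TMM from name sums HAL1b was at -0.12 at 24 h, HAL1ME at -0.01 in the interaction and HAL1M8 at -0.004 under Nutlin. With library size alone the values were -0.12 for HAL1M8 under Nutlin, -0.12 for HAL1ME and -0.1 for HAL1b at 6 h, -0.09 for HAL1ME and -0.27 for HAL1b at 12 h, and -0.11 for HAL1ME, -0.22 for HAL1b and -0.02 for HAL1M8 at 24 h. There the most counted HAL1b copy was at -0.12 at 12 h and the HAL1ME copy at -0.004 at 24 h. With only the libraries compared HAL1b was at -0.09 at 24 h and HAL1ME at -0.07 in the interaction. Against DMSO 6 h and 24 h HAL1b was at -0.01 and the HAL1M8 copy on chromosome 2 at 0.15. Without structural RNA HAL1 was at 0.03 in the interaction. Without the most counted copies, and without their stretches, HAL1 was at 0.06 in the interaction and -0.02 in DMSO against untreated. HAL1M8 under Nutlin was then at -0.06 and -0.2, HAL1ME at 6 h at -0.02 and -0.17, HAL1b in the interaction at 0.01 and 0.08, and HAL1ME at 12 h at -0.18 without the stretch. The cause of these changes was not tested, except that the last group leaves out counts.

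With single libraries left out, further signs turned. HAL1M8 ranged from -0.09 to 0.18 under Nutlin, -0.06 to 0.11 at 12 h and -0.05 to 0.07 in DMSO against untreated. HAL1 ranged from -0.22 to 0.06 at 24 h, -0.17 to 0.11 in the interaction and -0.06 to 0.1 in DMSO against untreated. HAL1b ranged from -0.02 to 0.04 at 24 h and HAL1ME from -0.03 to 0.13 in DMSO against untreated. Of the most counted copies, that of HAL1 ranged from -0.07 to 0.15, that of HAL1b from -0.13 to 0.02 and that of HAL1ME from -0.05 to 0.36 at 6 h, and at 24 h those of HAL1M8 and HAL1ME from -0.54 to 0.27 and from -0.17 to 0.5.

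Replicates share a number only: same-numbered libraries did not deviate together (r from -0.05 to 0.02, and 0.15 at 24 h). With the replicate number as a block, 2 names and 24 copies were called under Nutlin, 2 and 45 at 12 h, 0 and 25 at 24 h, 0 and 2 for the interaction, and 0 and 4 for DMSO against untreated. Depth limits the calls of copies: the filter was passed by 3.87% (5-FU table) and 1.67% (Nutlin table) of the HAL1 copies.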
